A study of Rattus norvegicus with 6 samples.

Results

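The muscle myosin light chains were represented on the array by 6 probe sets of 5 genes, out of 15923 probe sets and 10412 named genes. They were chosen by gene symbol alone: every probe set whose platform annotation gives the single gene Myl1, Myl2, Myl3, Myl4 or Mylpf. Mylpf is listed there under its current symbol Myl11 and was matched through its synonym, whereas the other 5 probe sets carried the symbol itself. Myl2 had 2 probe sets, which share a target gene, and each of the other genes had 1. All 6 passed the filter on dim probe sets.

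Each sarcomeric myosin heavy chain carries an essential and a regulatory light chain on its lever arm, between the motor head and the tail. The light chains stiffen the lever arm, and phosphorylation of the regulatory chain in fast skeletal muscle raises the force at a given calcium level. In rodents the fast fibres use Myl1 (essential) and Mylpf (regulatory). The slow fibres use Myl3 (essential) and Myl2 (regulatory), which are also the light chains of the heart ventricle. Myl4 is the essential chain of embryonic skeletal muscle and of the adult atrium. The tibialis anterior of the rat is a mostly fast muscle.

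The muscles came from 3 male Wistar rats, 8 weeks old, numbered 4, 5 and 6. The ipsilateral group is the tibialis anterior on the operated side, where the peroneal nerve had been cut, sutured to the biceps femoris muscle and, 4 weeks later, rejoined stump to stump, with a survival of 8 weeks. The contralateral group is the tibialis anterior of the other leg of the same animals, which therefore shared the operation, its anaesthesia (ketamine and xylazine) and any systemic effect. Unoperated animals are not analysed here. Total RNA of each muscle was hybridised to 1 array, giving 3 arrays per group.

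Intensities are on a linear scale, as deposited, with a trimmed mean near 150 on each array. Differences are log2 of ipsilateral over contralateral intensity after adding 15.8, with the standard error (SE) of limma's paired fit over 9519 tested probe sets. Called means a Benjamini-Hochberg adjusted p under 0.05. The markers of skeletal muscle fibres Ckm, Acta1, Des, Mb and Tnnt3 were bright on all arrays, with a summed intensity of 23796 to 27392 ipsilaterally and 26571 to 32049 contralaterally. The spermatid transcripts Prm1, Tnp1 and Odf1 summed to 947, 165 and 412 in the ipsilateral muscles of animals 4, 5 and 6, against 276, 81.5 and 113 in the contralateral muscles. All 3 transcripts were higher ipsilaterally in all 3 animals, and the ipsilateral array of animal 4 had the highest sum. Their part in the results below was not tested.

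On average in these arrays, the slow and the embryonic light chains were higher in the ipsilateral muscle and the fast ones were slightly lower, but no light chain was called. The direction turned for Myl1 with the scaling. In animal 4 the slow Myl3 was level (-0.0026) and the dimmer Myl2 probe set was lower (-0.23). Of the 6 probe sets, 0 had an adjusted p under 0.05 in limma's fit, where the share over all tested probe sets was also 0%. At an unadjusted p under 0.05 there were 2 of 6, the brighter probe set of Myl2 and that of Myl4, both higher, against 6.36% of all tested probe sets (3.57% higher and 2.78% lower). These 2 were also the ones higher in all 3 animals (12.3% of all tested), and the ones whose 3 ipsilateral values all lay above the 3 contralateral values (4.74%). None of the 6 was lower in all 3 animals (15.1% of all tested). The median log2 difference of the 6 was 0.33, beside -0.02 over all tested probe sets.

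The sequences before the transcription starts are shown as background, and their relation to the differences above was not tested. They are the 250 bases before each start in RefSeq, build GRCr8, matched by gene ID for 4 of the 5 genes. Myl1 has a pair of starts there, and no sequence is shown for Myl2. Capitals mark matches, on either strand, to the E-box (CANNTG), to MCAT (CATTCC), to the CArG box and to the MEF2 motif.
Myl3, chr8:119616844-119617093, plus strand: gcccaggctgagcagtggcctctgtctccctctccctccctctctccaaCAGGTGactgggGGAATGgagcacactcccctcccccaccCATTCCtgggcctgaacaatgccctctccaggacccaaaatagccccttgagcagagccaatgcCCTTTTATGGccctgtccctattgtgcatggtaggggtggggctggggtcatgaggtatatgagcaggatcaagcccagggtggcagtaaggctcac
Myl4, chr10:89975900-89976149, plus strand: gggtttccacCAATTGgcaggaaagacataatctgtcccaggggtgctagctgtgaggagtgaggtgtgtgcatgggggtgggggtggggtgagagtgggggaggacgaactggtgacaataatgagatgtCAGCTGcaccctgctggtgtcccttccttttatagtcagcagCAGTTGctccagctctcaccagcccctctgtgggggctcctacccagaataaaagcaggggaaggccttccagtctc
Mylpf, chr1:191260039-191260288, plus strand: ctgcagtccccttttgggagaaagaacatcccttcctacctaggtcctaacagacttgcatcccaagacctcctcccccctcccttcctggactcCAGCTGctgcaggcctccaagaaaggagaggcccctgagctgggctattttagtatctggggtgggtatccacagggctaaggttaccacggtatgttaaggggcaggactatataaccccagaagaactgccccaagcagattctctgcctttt
Myl1, outer start, chr9:75907697-75907946, minus strand: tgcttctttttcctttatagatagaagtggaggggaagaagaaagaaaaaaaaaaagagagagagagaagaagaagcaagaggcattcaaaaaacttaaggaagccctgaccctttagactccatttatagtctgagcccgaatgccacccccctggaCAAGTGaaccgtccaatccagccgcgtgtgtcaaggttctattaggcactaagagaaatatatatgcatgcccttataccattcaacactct
Myl1, inner start, chr9:75897800-75898049, minus strand: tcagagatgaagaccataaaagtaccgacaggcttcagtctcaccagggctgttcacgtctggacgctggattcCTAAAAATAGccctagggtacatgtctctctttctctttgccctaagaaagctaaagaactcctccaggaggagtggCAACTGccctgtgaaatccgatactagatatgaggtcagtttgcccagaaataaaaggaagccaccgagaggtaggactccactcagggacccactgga
The Myl3 window was the only one of the 5 with a CArG box, CCTTTTATGG, from base -97 to -88 counted back from the start, and the only one with MCAT, which it held at 2 places. The Myl1 window of the inner start was the only one with a MEF2 match, CTAAAAATAG, from -176 to -167. An E-box was found in all 5 windows, with 3 in that of Myl4 and 1 in each of the others. Over 33469 windows of the same length, the CArG box was in 1.5%, the MEF2 motif in 2.96%, MCAT in 12.1% and the E-box in 65.5%. No marked match overlapped another. These are matches of letters and not shown to be bound sites.

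Myl2, the slow regulatory chain, was higher ipsilaterally in all 3 animals by its brighter probe set and in animals 5 and 6 by its dimmer one. Its brighter probe set (1388200_at) had intensities of 3316, 4823 and 3291 in the ipsilateral muscles of animals 4, 5 and 6, against 2453, 1692 and 1539 in their contralateral muscles. Every ipsilateral value was above every contralateral one. The ipsilateral values of animals 4 and 6 were nearly equal, while the contralateral value of animal 4 was the highest of the 3, so the smaller difference in animal 4 came with a high contralateral value. The means were 3810 ± 877 ipsilaterally and 1894 ± 489 contralaterally (SD, n = 3 each), a ratio of 2.01. The log2 difference was 1.01 (SE 0.19, 95% interval 0.59 to 1.43), and the 3 within-animal values, in the order of animals 4, 5 and 6, were 0.43, 1.50 and 1.09. Its adjusted p in limma's fit was 0.312, although its unadjusted p was the 11th smallest of the 9519. Without animal 4 the difference was 1.30 and was called (limma adjusted p = 0.00107), in a fit that called 2.53% of all tested probe sets. It was also called without the pairing and without the ipsilateral array of animal 4, a setting chosen after seeing the data (difference 1.10, limma adjusted p = 0.0408, with 0.914% of all called). Without animal 5 or animal 6 it was not called.

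The dimmer Myl2 probe set (1388293_at) read 57.4, 158 and 95.7 ipsilaterally in animals 4, 5 and 6, against 70.2, 74.5 and 72.0 contralaterally. The contralateral values were close together and the ipsilateral ones spread on both sides of them, with animal 4 below. Its log2 difference was 0.35 (SE 0.22, limma adjusted p = 0.809); within animals 4, 5 and 6 it was -0.23, 0.94 and 0.34. The 2 probe sets thus ranked the animals alike but differed in sign in animal 4. Without animal 4 the dimmer one stood at 0.64 and without animal 5 at 0.056.

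Myl3, the slow essential chain, differed less. Its intensities were 2837, 4489 and 4492 in the ipsilateral muscles of animals 4, 5 and 6, against 2842, 3219 and 3342 in the contralateral muscles. Animals 5 and 6 had nearly the same ipsilateral value, above every contralateral one, whereas the ipsilateral value of animal 4 was level with its contralateral one. The means were 3939 ± 955 ipsilaterally and 3134 ± 261 contralaterally (SD, n = 3 each). The log2 difference was 0.30 (SE 0.13, 95% interval -0.00091 to 0.60, limma adjusted p = 0.776); within animals 4, 5 and 6 it was -0.0026, 0.48 and 0.43. In each animal the brighter Myl2 probe set had the larger difference of these slow chains. Without the pairing and the ipsilateral array of animal 4, Myl3 stood at 0.52, more than 1.5 times its value over all arrays, and without animal 4 altogether at 0.45. It was called in neither.

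Myl4, the embryonic essential chain, was dim but higher in every animal. Its intensities were 177, 371 and 138 in the ipsilateral muscles of animals 4, 5 and 6, against 124, 122 and 68.4 in the contralateral muscles. The groups did not overlap, but the lowest ipsilateral value, of animal 6, was close to the highest contralateral one, of animal 4. The means were 229 ± 125 ipsilaterally and 105 ± 31.6 contralaterally (SD, n = 3 each), a ratio of 2.18. The log2 difference was 0.94 (SE 0.20, 95% interval 0.49 to 1.39, limma adjusted p = 0.333); within animals 4, 5 and 6 it was 0.46, 1.49 and 0.87. Without animal 4 it was 1.18 and called (limma adjusted p = 0.00968). Since Myl4 is dim, the pseudocount weighs on it: the difference came to 0.81 under a pseudocount from the 40th percentile of all values and to 1.02 under one from the 5th.

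The probe sets of atrial and other cardiac markers (Nppa, Nppb, Myl7, Tnni3 and Tnnt2) all lay below the filter. Their summed intensity, taking of the 2 Tnnt2 probe sets the one brighter on average (1390061_at), was 75.6 to 81.9 ipsilaterally and 56.6 to 102 contralaterally. Myl7, the atrial regulatory chain, read 11.2 to 20.2 ipsilaterally and 11.2 to 24.4 contralaterally. That Tnnt2 probe set read 23.0, 33.5 and 38.9 ipsilaterally in animals 4, 5 and 6, against 28.0, 45.2 and 30.6 contralaterally, with overlapping groups. The other probe set of Tnnt2, the troponin T of heart and of embryonic skeletal muscle, read 17.2, 77.2 and 35.6 ipsilaterally in animals 4, 5 and 6, against 22.6, 2.3 and 5.4 contralaterally (1367592_at). The probe sets thus disagreed, and both were too dim to be tested.

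Mylpf, the fast regulatory chain, was among the brightest signals. Its intensities were 5820, 5825 and 6610 in the ipsilateral muscles of animals 4, 5 and 6, against 7055, 8724 and 6166 in the contralateral muscles. It was lower ipsilaterally in animals 4 and 5 and slightly higher in animal 6, so that the groups overlapped. The means were 6085 ± 455 ipsilaterally and 7315 ± 1299 contralaterally (SD, n = 3 each), a ratio of 0.832. The log2 difference was -0.25 (SE 0.14, 95% interval -0.56 to 0.054, limma adjusted p = 0.781); within animals 4, 5 and 6 it was -0.28, -0.58 and 0.10. The contralateral muscle of animal 5 had the highest value of the 6 arrays.

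Myl1, the fast essential chain, followed the same order of animals with smaller differences. Its intensities were 5296, 5354 and 6391 in the ipsilateral muscles of animals 4, 5 and 6, against 5955, 6899 and 6005 in the contralateral muscles. The log2 difference was -0.15 (SE 0.12, 95% interval -0.42 to 0.12, limma adjusted p = 0.847); within animals 4, 5 and 6 it was -0.17, -0.36 and 0.09. The single probe set does not tell the products of the 2 Myl1 starts apart. The intervals of both fast chains include 0. Without animal 5 their differences were -0.089 for Mylpf and -0.040 for Myl1, and without animal 6 they were -0.43 and -0.27.

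The brightest probe sets of the arrays moved with the fast chains. Over the 50 brightest probe sets that are no light chain, the median log2 difference in animals 4, 5 and 6 was -0.22, -0.30 and 0.048, and 45, 49 and 20 of the 50 were lower ipsilaterally. Fast-fibre genes were not taken out of these 50, which hold Tnni2, Actn3 and Atp2a1 beside general muscle genes such as Ckm and Acta1. A comparison with them therefore sets the fast chains partly against other fast genes and cannot separate array scale from a shared difference. The highest intensity on an array was 6299, 6589 and 7624 for the ipsilateral muscles of animals 4, 5 and 6, against 7738, 9181 and 6987 for the contralateral ones. Relative to those 50, Mylpf stood at -0.10 and Myl1 at 0.0098 on average, which for Myl1 is the opposite sign, as it was with quantile normalization (Mylpf -0.041, Myl1 0.02). Relative to the same 50, the brighter Myl2 probe set stood at 1.17, Myl3 at 0.46 and Myl4 at 1.10. Whether the signal scale at the bright end sets the fast chains' differences was not tested.

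**Figure D1:**
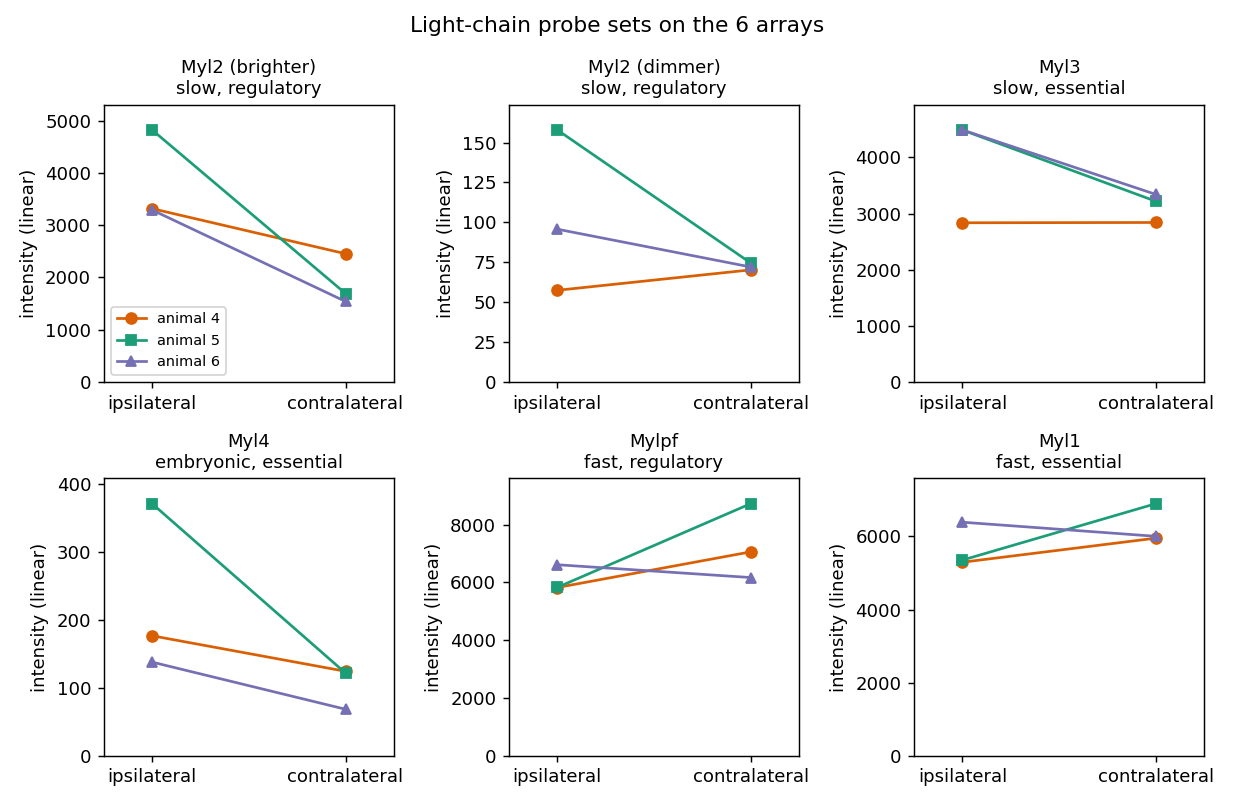
Intensity (linear scale, from 0) of each light-chain probe set in the ipsilateral and the contralateral muscle, with a line joining the 2 muscles of an animal. The brighter Myl2 probe set and Myl4 are higher ipsilaterally in all 3 animals, Myl3 is level in animal 4, and the lines of Mylpf and Myl1 cross.

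Taking the brightest probe set of each gene, slow, embryonic and fast chains were set against each other within each animal, as differences and not as levels, since intensities of different probe sets cannot be ranked against each other. The mean log2 difference of the slow chains Myl2 and Myl3 in animals 4, 5 and 6 was 0.22, 0.99 and 0.76. That of the fast chains Myl1 and Mylpf was -0.22, -0.47 and 0.09 in the same order. Slow minus fast was therefore above 0 in each animal, at 0.44, 1.46 and 0.66, with a mean of 0.85 ± 0.54 (SD, n = 3), which was 0.55 without animal 5. Embryonic minus fast was 0.68, 1.97 and 0.77, and embryonic minus slow was 0.24, 0.50 and 0.11. This contrast within arrays does not depend on a common factor per array, and it carries no test because the members were chosen with earlier results known. It describes unequal average differences of the classes in these 3 animals, and not which class differed in amount. A scale that varies with intensity is not removed by it, and slow minus fast was 0.71 with quantile normalization.

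**Figure D2:**
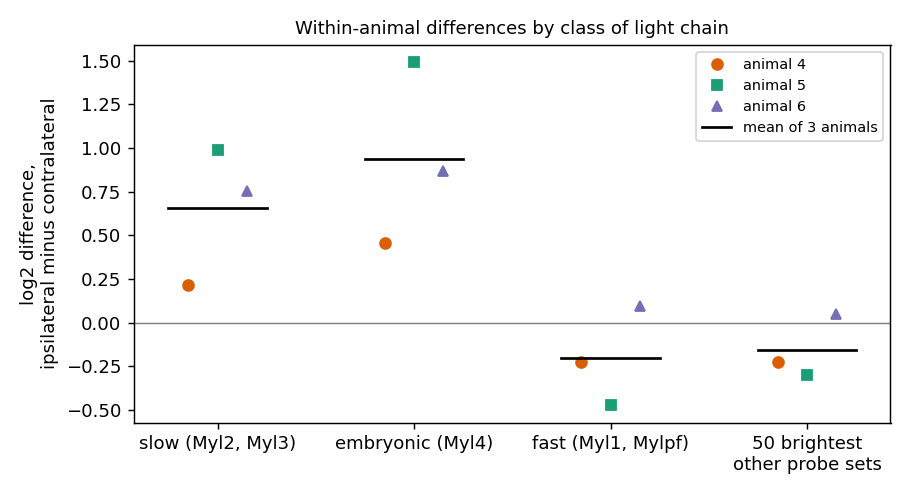
Within-animal log2 difference (ipsilateral minus contralateral) of the slow, embryonic and fast light chains and the median of the 50 brightest other probe sets, with a point per animal and a bar at the mean. In every animal the slow and embryonic points lie above the fast ones, and the fast chains lie near the brightest other probe sets, which include other fast-fibre genes.

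Among the heavy chains, which these light chains bind, the slow Myh7 and the type IIb Myh4 had differences further from 0 than those of their light chains. Of 10 tested thick-filament partners, 0 were called, and 3 were higher and 2 lower in all 3 animals (12.3% and 15.1% of all tested probe sets). Their median log2 difference was 0.10. Myh7, the slow heavy chain that pairs with Myl2 and Myl3, differed by 1.71 (SE 0.36); within animals 4, 5 and 6 it was 0.47, 2.99 and 1.67. Myh3, the embryonic heavy chain, read 309, 931 and 346 ipsilaterally in animals 4, 5 and 6, against 164, 21.9 and 5.8 contralaterally. The contralateral values of animals 5 and 6 lay below the filter's intensity of 42.4, so the size of its log2 difference, 3.19 (SE 0.56), is uncertain and is not ranked against that of Myl4. Within animals 4, 5 and 6 it was 0.85, 4.65 and 4.06, and every ipsilateral value was above every contralateral one, as in 4.74% of all tested probe sets. Myh4, the type IIb fast heavy chain, differed by -0.92 (SE 0.19) and was lower in all 3 animals, unlike Mylpf and Myl1. Myh2 and Myh1, the type IIa and IIx fast heavy chains that share those light chains, differed by 0.31 (SE 0.15) and, in its brightest probe set, 0.21 (SE 0.14). The other tested Myh1 probe sets ranged from -0.034 to 0.24, so their signs disagreed. Mybpc2, the fast myosin-binding protein C, differed by -0.39 (SE 0.13) in its brighter probe set. Its dimmer one differed by -0.79 (SE 0.38) but was higher in animal 4 (0.52). None of these was called by limma. Limma's adjusted p was 0.282 for Myh3, 0.333 for Myh7 and Myh4, and 0.652 for the brighter Mybpc2 probe set. The differences between heavy and light chains were not tested.

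**Figure D3:**
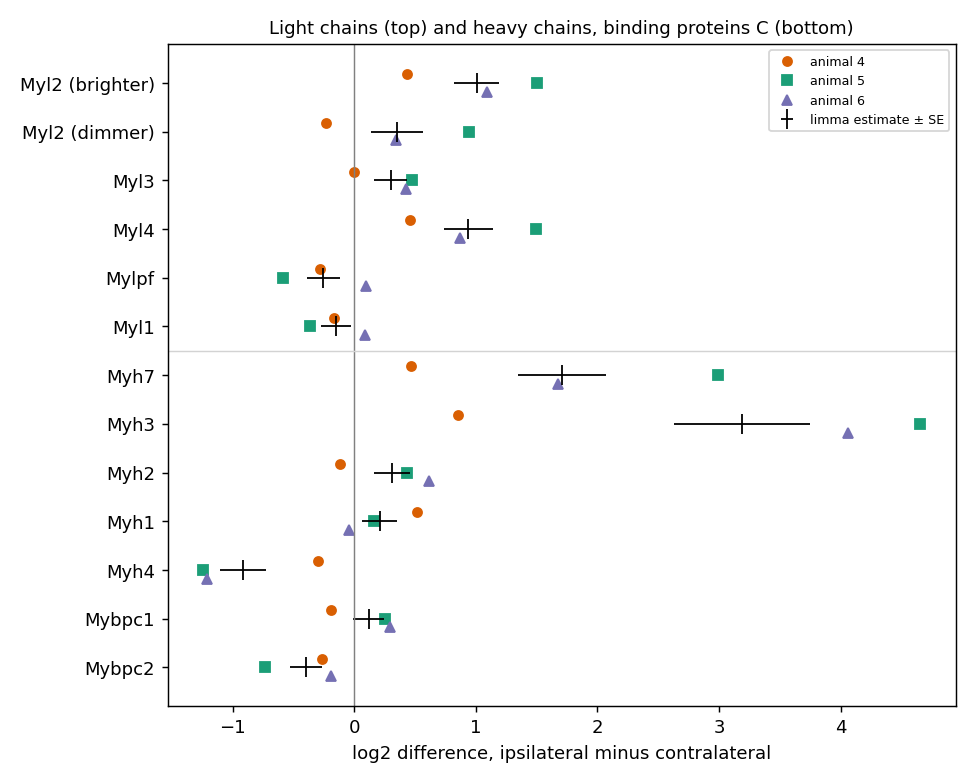
Log2 difference (ipsilateral minus contralateral) of the light-chain probe sets and of heavy chains and myosin-binding proteins C, with a point per animal and the limma estimate ± SE. Myh7 at 1.71 lies further from 0 than its light chains Myl2 and Myl3, the value of Myh3 rests on contralateral intensities near background in animals 5 and 6, and Myh4 at -0.92 lies further below 0 than Mylpf and Myl1.

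Slow thin-filament and calcium-handling genes had a median log2 difference of 1.14. All 8 were tested, 0 were called, and 5 were higher and 0 lower in all 3 animals (12.3% and 15.1% of all tested probe sets). In animals 4, 5 and 6 the list median was 0.17, 2.01 and 1.17. Tnnc1, the troponin C of slow muscle, differed by 0.92 (SE 0.19), the slow troponin I gene Tnni1 by 1.25 (SE 0.31), Casq2, the slow and cardiac calsequestrin, by 1.04 (SE 0.26) and Csrp3, a Z-disc protein, by 1.64 (SE 0.32). Like the brighter Myl2 probe set, 7 of the 8 had their highest contralateral value in animal 4, and all 8 had their highest ipsilateral value in animal 5. The ipsilateral level of the list was also lowest in animal 4. Its summed intensity was 9168, 19352 and 13077 ipsilaterally in animals 4, 5 and 6, against 8213, 5102 and 5336 contralaterally. The smaller differences in animal 4 thus came with both a low ipsilateral and a high contralateral level.

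The 9 fast thin-filament and calcium-handling genes had a median log2 difference of -0.25, with 0 called. In all 3 animals 3 were lower and 1 higher (15.1% and 12.3% of all tested probe sets). As with Mylpf and Myl1, the median was negative in animals 4 and 5 (-0.21 and -0.48) and slightly positive in animal 6 (0.037). A like pattern was seen in sets that hold general muscle genes and partly overlap this list. The median of the skeletal muscle fibre markers, which share Tnnt3 with this list, was -0.21, -0.47 and 0.070 in animals 4, 5 and 6. That of the 50 brightest other probe sets, which hold Tnni2, Actn3 and Atp2a1 of this list, was -0.22, -0.30 and 0.048. Actn3, the fast alpha-actinin, differed by -0.48 (SE 0.13), Atp2a1, the fast calcium pump, by -0.29 (SE 0.13), Tnni2, the fast troponin I, by -0.26 (SE 0.12) and Myoz1, a Z-disc protein of fast fibres, by -0.25 (SE 0.13). Beside Myl4, the genes of developing muscle had 6 tested of 10 listed, with 0 called and a median of 0.41. In all 3 animals 2 were higher and 0 lower (12.3% and 15.1% of all tested probe sets). Nes (nestin) and Dlk1 differed by 0.44 (SE 0.16) and 0.39 (SE 0.16), and Cdkn1a, a cell cycle inhibitor of differentiating muscle, by 1.16 (SE 0.55) in its tested probe set. A Cdkn1a probe set too dim to be tested was higher in all 3 animals, by 1.83 in the fit without the filter, with 0.83 in animal 4. Myog, a muscle transcription factor that rises after denervation, differed by 0.56 (SE 0.27). The tested Cdkn1a probe set and Myog were below 0 in animal 4, at -0.93 and -0.31, where Myl4 was at 0.46.

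Genes that set the phosphorylation of the regulatory chains had 8 tested of 13 listed, with 0 called and a median of 0.02. In all 3 animals 1 was higher and 1 lower (12.3% and 15.1% of all tested probe sets). Mylk2, the kinase of skeletal muscle that phosphorylates Mylpf, had 2 probe sets that disagreed in animal 4. The one with the suffix s_at (1398821_s_at) read 351, 359 and 388 in the ipsilateral muscles of animals 4, 5 and 6, against 855, 858 and 468 in the contralateral ones, and differed by -0.91 (SE 0.21, limma adjusted p = 0.385). Its ipsilateral values all lay below its contralateral ones, as in 5.78% of all tested probe sets. The other (1398820_at) read 931, 372 and 384 ipsilaterally, against 649, 999 and 703 contralaterally, and differed by -0.57 (SE 0.30), with 0.51 in animal 4. In animals 5 and 6 both were lower ipsilaterally.

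Calm2, one of the genes of calmodulin, which activates the kinase, differed by -0.48 (SE 0.17) and was lower in all 3 animals. Ppp1r12a, a targeting subunit of myosin phosphatase, read 112, 218 and 250 ipsilaterally in animals 4, 5 and 6, against 112, 99.5 and 124 contralaterally. It differed by 0.65 (SE 0.21) and was level in animal 4. A Ppp1r12a probe set too dim to be tested differed by 0.30 in the fit without the filter. Within animals 4, 5 and 6 that probe set stood at 0.34, -0.05 and 0.60. Ppp1r12b, another listed targeting subunit, had no probe set matched to it and was not measured here. Ppp1cb, a catalytic subunit of the phosphatase, differed by 0.19 (SE 0.14). Limma's adjusted p was 0.668 for Calm2, 0.586 for Ppp1r12a and 0.847 for Ppp1cb.

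**Figure D4:**
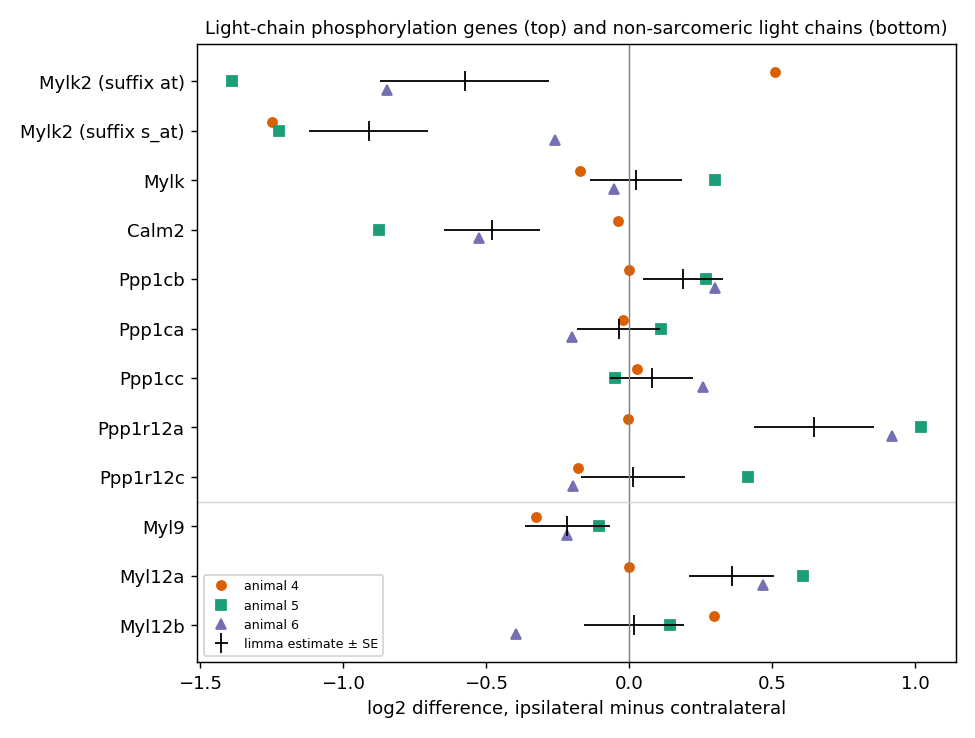
Log2 difference (ipsilateral minus contralateral) of genes of light-chain phosphorylation and of light chains outside the sarcomere, with a point per animal and the limma estimate ± SE. Both Mylk2 probe sets are below 0 in animals 5 and 6 and part in animal 4, and Ppp1r12a at 0.65 is the furthest above 0.

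Other light chains served as a comparison. Of 9 listed, among them the atrial Myl7 given above, 3 were tested, all from outside the sarcomere, and 0 were called. Myl12a, a regulatory chain of non-muscle myosin, read 2110, 2667 and 2668 ipsilaterally in animals 4, 5 and 6, against 2111, 1743 and 1926 contralaterally, a difference of 0.36 (SE 0.15, limma adjusted p = 0.77). It was level in animal 4 and higher in the others, as Myl3 was. Myl9, the smooth muscle chain, differed by -0.22 (SE 0.15, limma adjusted p = 0.837). Its ipsilateral values, 121 to 139, all lay below the contralateral ones, 151 to 161, as in 5.78% of all tested probe sets. Myl12b differed by 0.02 (SE 0.17).

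Among the other smooth muscle markers Acta2, Myh11 and Tagln, 0 were called, and the summed level of the 4 markers with Cnn1 was 431 to 501 ipsilaterally and 428 to 680 contralaterally. Tagln and Myh11 differed by -0.29 (SE 0.15) and -0.24 (SE 0.15) and were lower in all 3 animals, as were 15.1% of all tested probe sets. Acta2 differed by -0.06 (SE 0.20) and was higher in animal 4. The adipocyte markers Cfd and Fabp4 differed by 0.79 (SE 0.16) and 0.52 (SE 0.16) and were higher in all 3 animals. The summed level of those 2 with Plin1 was 1457 to 2342 ipsilaterally and 1020 to 1648 contralaterally. The macrophage markers Cd68, Cd14 and Csf1r summed to 371 to 557 ipsilaterally and 480 to 616 contralaterally. Cd14 and Cd68 differed by -0.52 (SE 0.16) and -0.38 (SE 0.16) and were lower in all 3 animals. Csf1r differed by -0.15 (SE 0.17) and was higher in animal 4. The Schwann cell markers Mbp, S100b and Pmp22 summed to 824 to 889 ipsilaterally and 632 to 752 contralaterally, without overlap. Pmp22 and S100b differed by 0.40 (SE 0.15) and 0.30 (SE 0.15) and were higher in all 3 animals by their brightest probe sets (a dimmer one of Pmp22, at 0.24, SE 0.22, was lower in animal 5), while Mbp, a myelin protein, differed by -0.38 (SE 0.16), and 0 of the 3 were called. The part of other cells in the light chains' differences was not tested, and in whole muscle a change in the number of fibres of a type and in the transcript per fibre cannot be told apart.

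Of the regulators known to act on muscle promoters, Myog is given above with developing muscle. Of the 12 others listed, 5 were tested, with 0 called and 0 in 1 direction in all 3 animals by the brightest probe set, and their median was -0.04. Mef2c, a factor that binds the MEF2 motif, differed by 0.24 (SE 0.16) and, in a dimmer probe set that was higher in all 3 animals, by 0.36 (SE 0.16). Mef2d differed by 0.22 (SE 0.17) and, in a dimmer probe set, by -0.17 (SE 0.17), so that its probe sets disagreed in sign. Tead1, which binds MCAT, differed by -0.09 (SE 0.17) and Myf6, which binds E-boxes, by -0.05 (SE 0.17).

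The genes nearest in pattern were those with the smallest root mean square distance between centred log2 values over the 6 arrays, which share animals and array scale. Nearest to Myl2 were Cidea, a lipid droplet protein, at a distance of 0.10, Tnnc1 at 0.11 and Gipc2 at 0.18, where Myl2 itself had an SD of 0.63. Nearest to Myl4 (SD 0.73) were Cdh13, a cadherin, at 0.22, Tnnc1 at 0.22 and the non-coding RNA Meg3 at 0.23. Tnnc1 thus stood among the nearest 3 of both the slow Myl2 and the embryonic Myl4. Nearest to Myl3 (SD 0.30) were Msn (moesin), Nudt7 and Upp1 at 0.065 to 0.074. Nearest to Mylpf (SD 0.22) were Tnni2, Nudc and Echs1 at 0.042 to 0.045. Nearest to Myl1 (SD 0.15) were Nsun5, COX2 and Orc5 at 0.021 to 0.025, from 7957 candidates, so that close neighbours are easily found at so small a spread.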

How the data were processed

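Both tibialis anterior muscles of 3 rats were measured on 6 arrays, grouped by sample title, where Cont was read as contralateral and the number as the animal. The deposited intensities are linear, 1 per probe set and array, and their equal trimmed means show a scaling by the authors, with software not given in the sources used here. The 57 controls among 15923 probe sets were left out. The platform annotation named 1 gene for 12789, several for 312 and none for 2822. Values were log2(intensity + 15.8), the 20th percentile of all values. Array medians differed by at most 0.117 (log2), under a limit of 0.2, so no further normalization was applied. The filter at 5.86 (the 40th percentile of mean log2 values, an intensity of 42.4) left 9519 for testing. Testing used limma 3.58.1 under R 4.3.3 (eBayes with trend), with the animal as a block, since both muscles are of 1 animal, and with 2 residual and 7.47 prior degrees of freedom. Deviations of an animal's muscles from the group means correlated at -0.041, 0.072 and 0.13 over probe sets for animals 4, 5 and 6. The median SE was 0.16, and the number of arrays limits the precision. Where a gene had several probe sets, lists used the brightest tested one, and up to 4 genes of each list with the smallest p were named, as were the 3 genes nearest in pattern to each light chain among probe sets whose SD over the 6 arrays was at least the light chain's SD divided by 2. Other genes are given as companions of a light chain and were chosen after their values were seen. Below the filter, values come from the fit without it. The light chains, lists and tests were chosen with earlier results of these data known. The procedure was tested on simulated data. Alternatives covered the block, pseudocount, normalization, filter, variance prior, probe set and each animal left out. Plots used matplotlib 3.10.9 and Python 3.11.15.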

Additional observations from a re-analysis of the deposited data

How the results depend on the processing

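Over all probe sets, 0 were called in limma's fit (605 at an unadjusted p under 0.05). The count was 241 without animal 4, where 1 residual degree of freedom is left, 0 without animal 5 and 0 without animal 6. It was 87 without the pairing and the ipsilateral array of animal 4, a setting chosen after seeing the data. In the same settings the brighter Myl2 probe set was called at 1.30 without animal 4 and at 1.10 in the added setting, and Myl4 at 1.18 without animal 4. Leaving out each animal gave 0.76 to 1.30 for the brighter Myl2 probe set, 0.056 to 0.64 for the dimmer one, 0.21 to 0.45 for Myl3, 0.66 to 1.18 for Myl4, -0.43 to -0.089 for Mylpf and -0.27 to -0.040 for Myl1. Myl1 changed sign to 0.020 with quantile normalization and to 0.0098 relative to the 50 brightest other probe sets, a setting also chosen after seeing the data, and the cause was not tested. Without the replicate block the differences were the same (1.01 for the brighter Myl2 probe set, with an adjusted p of 0.309), and the block changed no call. Slow minus fast ranged from 0.55 without animal 5 to 1.06 without animal 4, and was 0.69 with the mean over all probe sets of a gene and 0.71 with quantile normalization. The other settings left each light chain's sign and call as reported.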
